A study of Mus musculus with 6 samples.

Results

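The chemokines and their receptors were followed in RNA labelled as muscle, from dystrophic MDX mice and from C57BL/10 mice. Members were the genes whose symbol is Ccl, Cxcl, Cx3cl, Xcl, Ccr, Cxcr, Cx3cr, Xcr or Ackr followed by a number, found through the RefSeq accession of each array probe. These were 57 genes, read by 69 probes, of 20972 named genes on the array. They comprised 34 ligands, 19 signalling receptors and 4 atypical receptors. A further 10 genes of such names in the gene table, among them Cxcl11, Ccl27b and the Ccl21 genes, were paired with no probe and were not analysed here.

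Total RNA labelled as gastrocnemius, a calf muscle, was read on 6 Agilent single-colour arrays, 2 for each of 3 groups. In the group B10_tap, C57BL/10 mice drank tap water for 10 months. MDX mice, which carry a mutation that removes dystrophin from muscle, drank tap water in the group MDX_tap and the bioceramic water JJ101 in the group MDX_JJ101, also for 10 months. The labels number the replicates but name no separate mice, ages or sexes, so the p-values measure the spread between these samples, which may be technical. The comparisons ask how the MDX mice differ from C57BL/10 mice and what JJ101 changes in MDX mice, and the groups are shared between them.

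Chemokines are small secreted proteins that bind G protein-coupled receptors on leukocytes and draw these cells along a gradient. Inflammatory chemokines are made on injury and recruit monocytes, T cells, eosinophils or neutrophils, whereas homeostatic ones guide the routine traffic of lymphocytes and progenitor cells. Atypical receptors bind and remove chemokines without the usual G protein signal. In dystrophic muscle, repeated fibre damage keeps drawing in monocytes, which become macrophages.

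All 6 arrays lay on 1 slide. The MDX_tap arrays were in row 1 and the MDX_JJ101 arrays in row 2, of the same columns 3 and 4, so slide row and JJ101 cannot be told apart. The B10_tap arrays had columns 1 and 2 to themselves. Between 42.5% and 51.6% of the 59305 non-control spots of an array were well above background by the scanner's flag, with the lowest shares in MDX_JJ101. Dmd, the gene mutated in MDX mice, measured 1.06 and 1.06 in B10_tap, -0.84 and -0.27 in MDX_tap, then -1.50 and -1.74 in MDX_JJ101 on the log2 scale explained below, so each MDX array lay below both B10_tap arrays. Markers matched the labelled tissue only in part, and heart muscle markers gave the higher summed signal on each of the 6 arrays. The heart marker Myh6 lay between 10.17 and 10.45 on that scale. Why heart markers were so bright in RNA labelled as calf muscle was not tested. Of 13 skeletal muscle markers, Ckm, Acta1 and Tnni2 were well above background on all 6 arrays, and Myod1 and Myog, regulators of skeletal muscle, and Mylpf, a fast-fibre light chain, on none. Myh1, Myh2, Myh4 and Actn3, of fast fibres, were well above background on the 4 tap water arrays and on neither MDX_JJ101 array. Of 11 heart muscle markers, 10 passed that flag on each of the 6 arrays, and their summed signal ranged from 3609 to 3623 in B10_tap, from 3551 to 3698 in MDX_tap and from 4615 to 4826 in MDX_JJ101. The 10 skeletal muscle markers tested below summed to 148 to 150 in B10_tap, 145 to 147 in MDX_tap and 257 to 276 in MDX_JJ101. Most of that sum came from Ckm and Acta1, and the other markers did not share its rise. Of the 10, 2 had a higher mean level in MDX_JJ101 than in MDX_tap and 8 a lower one, with a median difference of -2.92. Summed signals are linear and in units of the array's 75th percentile. The part of these muscle and heart transcripts in the results below was not tested.

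Detection separated the family into a large group that was always present and one that was always dark. Of the 57 members, 31 were well above background throughout the 6 arrays, 17 on none and 9 on some. On every array 21 of 34 ligands and 10 of 23 receptors were present. The number of members detected per array was 37 and 35 for B10_tap, 38 and 37 for MDX_tap, and 34 and 32 for MDX_JJ101.

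**Figure D1:**
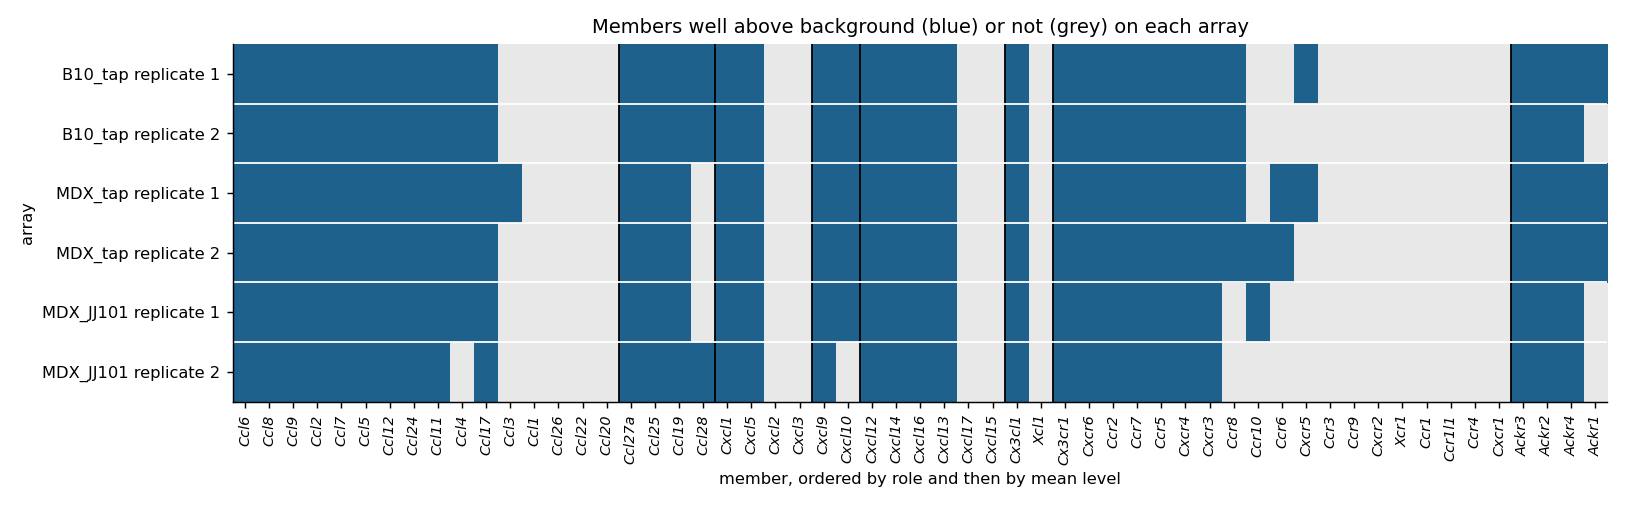
Detection of the 57 members (columns, ordered by role and then by mean level) on the 6 arrays (rows); blue marks a member well above background and grey one that was not. The 31 members that are blue in every row and the 17 that are grey in every row make up most of the plot, and the MDX_JJ101 rows hold the fewest blue cells, 34 and 32.

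The members detected on no array included Cxcl2 and Cxcl3, which attract neutrophils, together with Cxcr1 and Cxcr2, the receptors for such ligands. The others were Ccl1, Ccl20, Ccl22, Ccl26, Cxcl15, Cxcl17 and Xcl1 among the ligands and Ccr1, Ccr1l1, Ccr3, Ccr4, Ccr9 and Xcr1 among the receptors. Several ligands were therefore measured without a receptor known to bind them. Ccl6 and Ccl9, ligands of Ccr1, were among the highest members although Ccr1 was well above background on no array. Ccl11 and Ccl24, the eotaxins, were present on all 6 arrays, whereas their receptor Ccr3 was not well above background on any, nor were the eosinophil genes Siglecf, Epx and Prg2. The reverse held for Ccr6, whose ligand Ccl20 was not well above background on any array. Not well above background means only that the signal was too low to call on that array.

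The other 9 members crossed the detection limit between arrays. Ccr6 was well above background on both MDX_tap arrays and on no other. Ccr8, a receptor of T cells and monocytes, was detected on the 4 arrays of the tap water groups and on neither MDX_JJ101 array, but its levels of -3.54 and -3.15 in MDX_JJ101 overlapped the -3.17 and -3.27 of MDX_tap. The lowest signal called well above background was higher in MDX_JJ101, at -3.33 and -3.29, than in MDX_tap, at -4.14 and -3.90. Ccl4 and Cxcl10 were missing only from MDX_JJ101 replicate 2, and Ccl3, a close relative of Ccl4, was called only on MDX_tap replicate 1. Ackr1, which carries chemokines across venules, was called on both MDX_tap arrays and 1 B10_tap array, Cxcr5 on 1 array each of B10_tap and MDX_tap, and Ccr10 on 1 array each of the MDX groups.

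A level is the processed signal on the log2 scale, set against the 75th percentile of its array, so 0 is that percentile and 1 unit is a doubling of signal. Levels of different genes come from different probes and are ordered here only within this family and scale. Cxcl12, which binds Cxcr4 and the scavenger Ackr3 and retains progenitor cells, was the brightest member on this scale at 6.58 and 6.59 in B10_tap, 6.34 and 6.09 in MDX_tap, then 6.21 and 6.28 in MDX_JJ101. Its tap water groups did not overlap, but its other probe gave a difference of 0.03 between MDX_tap and B10_tap, against -0.37 from the probe used. Next in order came Ccl6, Ackr3, Cxcl14 and Ccl8. Ackr3 lay between 3.49 and 3.88 and Cxcl14, a chemokine of epithelia and stroma, between 2.79 and 3.75, and neither passed the test in any comparison.

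In MDX mice on tap water, most members that could be tested lay above their C57BL/10 level, but limma called none of them. The test covered 20869 genes and transcripts that, in 1 group or more, both arrays showed well above background, with Benjamini-Hochberg adjustment over all of them and a threshold of 0.05. Of the 57 members 37 entered it, and 0 passed between MDX_tap and B10_tap, where 5 of all genes tested, 0.024%, passed. At an unadjusted p under 0.05 there were 12 members, against 21.0% of all genes. The difference was positive for 30 of the 37, with a median of 0.67 on the log2 scale, beside a median of -0.06 over all genes. The 2 arrays of MDX_tap lay above both of B10_tap for 19 members and below for 3, where 24.4% and 37% of all genes did so. A member that entered through a group where it was bright had a difference built in, so these counts describe the 37 and not the family.

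Among the inflammatory CC ligands, Ccl6, Ccl8 and Ccl9 stood farthest above B10_tap relative to their spread. Ccl6, a myeloid chemokine of rodents, measured 3.39 and 3.15 in B10_tap, 4.65 and 4.43 in MDX_tap, then 3.77 and 3.76 in MDX_JJ101. The 3 groups did not overlap, with MDX_JJ101 between the others. MDX_tap was 2.41-fold above B10_tap (difference 1.27, SE 0.13, adjusted p = 0.0614 by limma). Ccl9, its neighbour on chromosome 11, measured 2.30 and 2.07, then 3.53 and 3.43, then 2.71 and 2.46 in the same order of groups. It showed the same order without overlap, and its difference of 1.30 (SE 0.14) had an adjusted p of 0.0652 by limma.

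Ccl8, a monocyte chemoattractant, had the largest positive difference between MDX_tap and B10_tap of the 37 members tested. It measured 1.83 and 2.64 in B10_tap, 5.15 and 4.24 in MDX_tap, then 3.41 and 2.88 in MDX_JJ101, with no overlap between groups. MDX_tap was 5.49-fold above B10_tap (difference 2.46, SE 0.42, limma's adjusted p = 0.0987). Ccl6, Ccl8 and Ccl9 missed the threshold here and passed it when arrays were centred on their median, or by normexp and quantile normalization, or in the authors' table. Over all alternatives the adjusted p of Ccl6 ran from 0.0144 to 0.343, and its difference from 1.15 to 1.44.

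The promoters of these 3 genes are shown because their levels had the same order of groups. Each is the 250 bases before the RefSeq transcription start in GRCm38.p6, printed 5′ to 3′ on the gene's strand, with matches to the motifs searched in capitals. The positions are chr11:83593088-83593337 and chr11:83578637-83578886, both on the minus strand, and chr11:82114935-82115184 on the plus strand.
Ccl6: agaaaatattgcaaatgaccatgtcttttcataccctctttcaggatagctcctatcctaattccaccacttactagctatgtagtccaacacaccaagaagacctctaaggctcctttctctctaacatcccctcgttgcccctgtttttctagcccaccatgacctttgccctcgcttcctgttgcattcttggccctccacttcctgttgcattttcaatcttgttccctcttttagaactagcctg
Ccl9: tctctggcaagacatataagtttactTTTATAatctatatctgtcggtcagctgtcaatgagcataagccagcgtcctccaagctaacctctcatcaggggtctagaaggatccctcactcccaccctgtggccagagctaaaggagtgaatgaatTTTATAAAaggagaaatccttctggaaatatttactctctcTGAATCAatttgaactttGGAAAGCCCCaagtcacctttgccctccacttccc
Ccl8: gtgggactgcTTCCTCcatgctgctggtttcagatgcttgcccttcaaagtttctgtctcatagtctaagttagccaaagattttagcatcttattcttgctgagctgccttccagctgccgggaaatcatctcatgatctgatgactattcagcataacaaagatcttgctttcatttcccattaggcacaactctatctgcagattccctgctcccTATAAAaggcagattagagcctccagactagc

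The motifs were searched on both strands: an NF-kB consensus, AP-1 (TGANTCA), the interferon response core, the STAT site (TTCNNNGAA), TATAAA and the PU.1 core (GAGGAA). The Ccl9 promoter held an NF-kB match starting 35 bases before the start, an AP-1 match at 53 bases and TATAAA at 224, 94 and 92 bases, the last pair overlapping. The Ccl8 promoter held TATAAA at 32 bases and the PU.1 core at 240 bases. The Ccl6 window held none of the 6 motifs, so the 3 promoters shared no match in these windows. A promoter was given for 43 of the 57 members, and the NF-kB consensus lay in 10 of these 43, 23.3%, against 7.01% of 27025 promoters. Among the 10 were Ccl1, Ccl20, Cxcl2, Cxcl3, Ccr1 and Ccr3, which were well above background on no array. The others were Ackr2, Ccl9, Cxcl1 and Cxcl10. Of the members called lower in MDX_JJ101 than in MDX_tap below, 8 had a promoter, and the consensus lay in 1 of these. TATAAA lay in 30.2% of the members' promoters against 13.0% of all, the interferon core in 6.98% against 3.04%, AP-1 in 9.30% against 6.87%, the STAT site in 9.30% against 7.18%, and the PU.1 core in 27.9% against 23.1%. These matches describe letters in a window and show no binding.

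The remaining inflammatory CC ligands split by how far their replicates lay apart. Ccl2 and Ccl7, ligands of the monocyte receptor Ccr2, overlapped between MDX_tap and B10_tap: Ccl2 measured 1.31 and 2.01 in B10_tap, 3.13 and 1.55 in MDX_tap, then 1.61 and 0.33 in MDX_JJ101. Ccl5, which attracts T cells and monocytes, measured -0.04 and 0.42, then 2.55 and 0.72, then 1.07 and -0.14, and its adjusted p between the tap water groups was 0.304 by limma. The eotaxins Ccl11 and Ccl24 did not follow Ccl6, Ccl8 and Ccl9. They differed between MDX_tap and B10_tap by 0.01 (SE 0.17) and -0.11 (SE 0.19), signs that turned with the scaling. Over the 11 of 16 inflammatory CC ligands that were tested, the median difference was 1.27, and 10 were positive.

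Ccl28, a mucosal chemokine that binds Ccr10 and Ccr3, went the opposite way. It measured -0.60 and -0.44 in B10_tap, -6.03 and -5.83 in MDX_tap, where neither array was well above background, and -5.32 and -1.83 in MDX_JJ101, where only replicate 2 was. MDX_tap therefore lay at least 11.3-fold below B10_tap, a bound computed against the lowest signal called well above background on the MDX_tap arrays. The fitted difference of -5.41 (SE 1.09) had an adjusted p of 0.111 by limma. Ccl28 entered the test only through B10_tap, where it was bright, so a lower level in MDX_tap was built in. Its p-values are therefore no support for that difference. With the 2 tap water groups fitted alone it passed at an adjusted p of 0.022 by limma. Over all alternatives limma's adjusted p ran from 6.9e-38, with spike-in scaling, to 0.415. Its promoter is shown because it was the member detected on both B10_tap arrays and on neither MDX_tap array; it lies at chr13:119623569-119623818 in GRCm38.p6, on the plus strand, and held none of the motifs.
Ccl28: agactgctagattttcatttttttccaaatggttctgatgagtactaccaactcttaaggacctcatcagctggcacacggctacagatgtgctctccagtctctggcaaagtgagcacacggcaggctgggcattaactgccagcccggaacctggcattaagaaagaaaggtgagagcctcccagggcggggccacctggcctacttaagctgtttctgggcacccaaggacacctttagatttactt

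Among the receptors, Ackr2, which scavenges inflammatory CC chemokines, had the smallest p between MDX_tap and B10_tap. It measured 0.02 and -0.09 in B10_tap, 0.82 and 0.87 in MDX_tap, then 0.57 and 0.27 in MDX_JJ101, with no overlap between groups. The difference between the tap water groups was 0.89 (SE 0.14, limma's adjusted p = 0.0871), and it passed under the same 3 alternatives. Ccl6, Ccl9 and Ackr2 passed also with the test limited to probes well above background on all 6 arrays, and Ccl8 with spike-in scaling. Of the 9 signalling receptors tested, 8 of 19 being dark on every array, the median difference was 0.76 and 8 were positive. The largest were Ccr2 at 1.35 (SE 0.49), Cxcr6 at 1.29 (SE 0.42), Ccr7 at 1.06 (SE 0.44) and Cxcr3 at 1.03 (SE 0.28), with adjusted p-values of 0.216, 0.187, 0.254 and 0.156 by limma. Cx3cl1, a membrane-bound chemokine of endothelium, measured 1.69 and 1.53 in B10_tap, 2.27 and 2.11 in MDX_tap, then 2.24 and 1.95 in MDX_JJ101, so both MDX groups lay above B10_tap. Its difference of 0.58 (SE 0.15) had an adjusted p of 0.143 by limma.

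**Figure D2:**
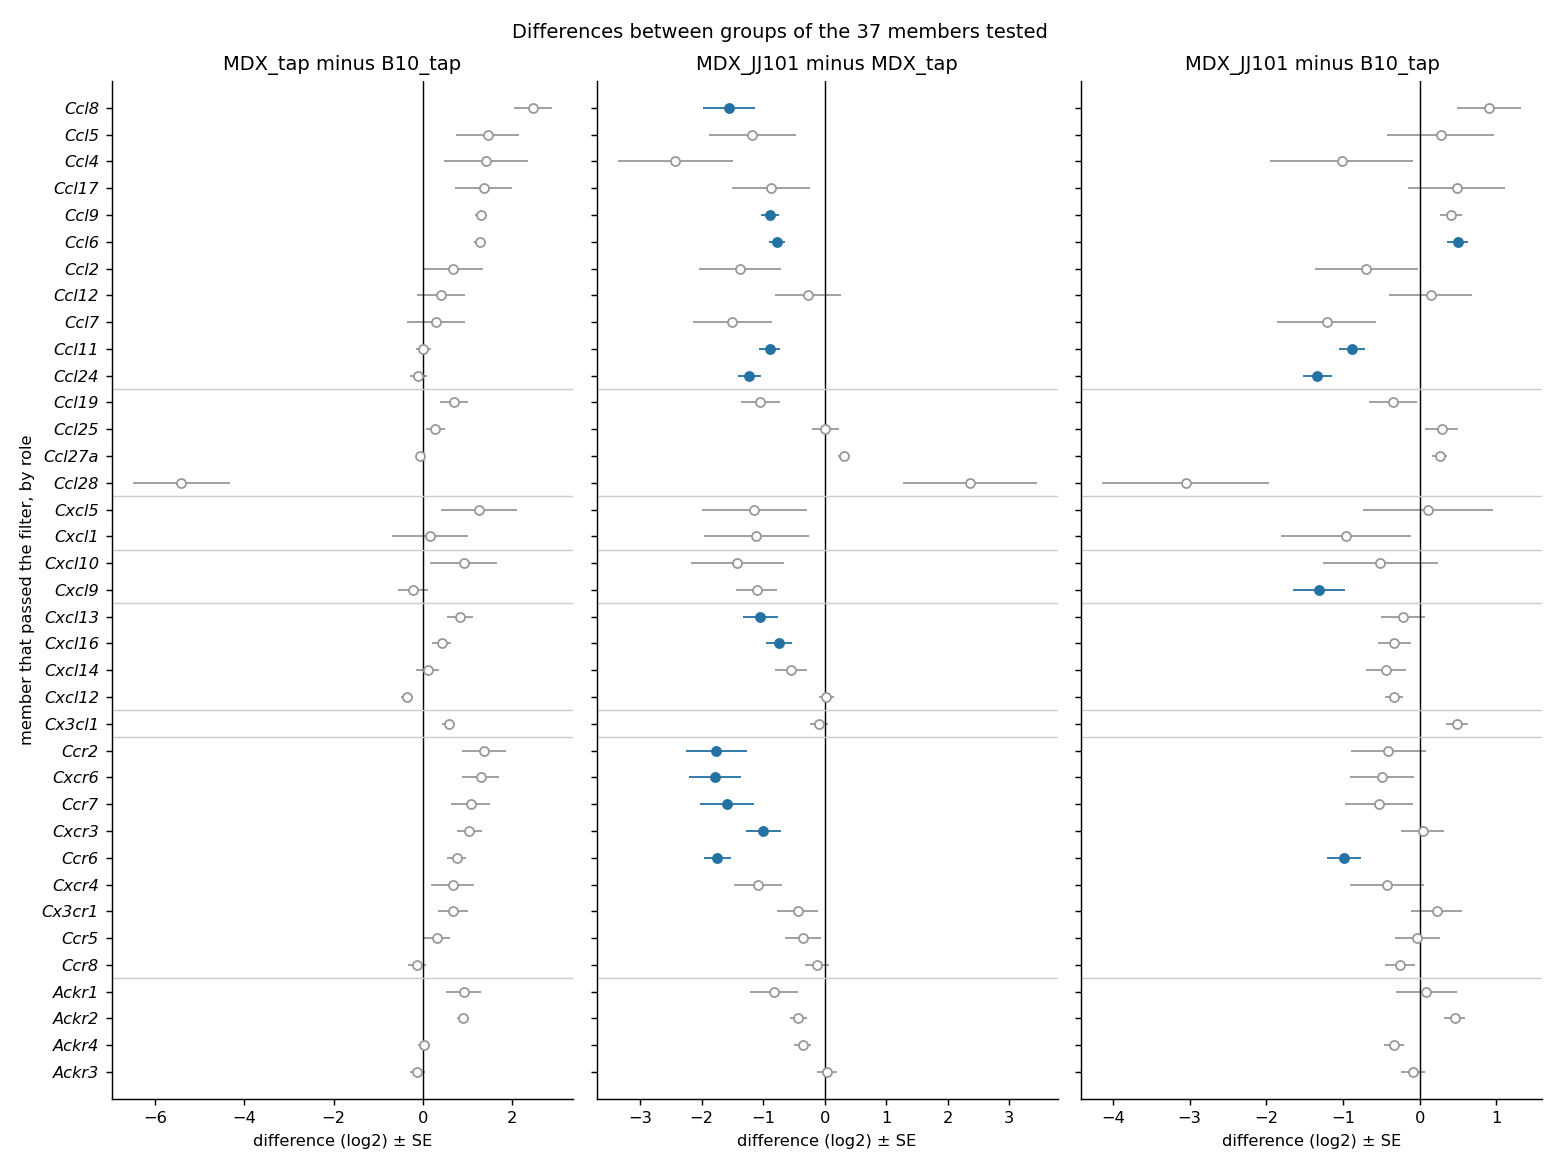
Differences between groups on the log2 scale (horizontal axes, each panel with its own range) for the 37 members tested, ordered by role, with standard errors as bars; filled blue points passed limma's adjusted p of 0.05. The left panel has no filled point, the middle one has 12, each below 0, and the right one has 5.

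JJ101 water in MDX mice went with lower levels of chemokine genes. Between MDX_JJ101 and MDX_tap, 12 of the 37 members tested were lower and 0 higher, where limma called 16.1% of all genes lower and 19.9% higher, 36.1% in all. The 12 were the ligands Ccl6, Ccl8, Ccl9, Ccl11, Ccl24, Cxcl13 and Cxcl16 and the receptors Ccr2, Ccr6, Ccr7, Cxcr3 and Cxcr6. Ccr6 and Ackr1 entered the test only through MDX_tap, where they were bright, so a lower level was built in for them; of the other 35, 11 were lower. Skeletal muscle markers had a larger median difference: of 10 skeletal muscle markers tested 6 were lower and 1 higher, with a median of -2.92. Myh4, a fast-fibre myosin, measured 2.62 and 2.28 in B10_tap, 0.91 and 3.53 in MDX_tap, then -5.52 and -5.42 in MDX_JJ101, at least 46.3-fold below MDX_tap, and Ckm, a muscle creatine kinase, was 2.58-fold higher (limma's adjusted p = 0.0128 for each). Of the 10 heart muscle markers tested, 5 were higher and 0 lower. The part of these transcripts in the lower chemokine levels was not tested. The difference was positive for 5 of the 37, with a median of -0.89 beside 0.00 over all genes. Both MDX_JJ101 arrays lay below both MDX_tap arrays for 21 members and above for 2, where 35.4% and 37.3% of all genes did so. An unadjusted p under 0.05 by limma, in either direction, was reached by 19 of the 37 members, a share near the 49.7% of all genes. None of the 12 changed sign when arrays were scaled in another way, and they remained called with spike-in scaling and in the authors' table, while 7 of them were still called with median centring, which also called Ccl27a higher. Spike-in scaling moved the median of all genes to -0.43 and that of the members to -1.33, and median centring moved them to 0.23 and -0.67. Over all genes 4160 of 7529 calls were higher, 5692 of 7590 with median centring and 78 of 3771 with spike-in scaling.

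These calls rested on both MDX_tap arrays: without MDX_tap replicate 1 or replicate 2 none of the 37 members passed by limma. Without MDX_JJ101 replicate 2, or without either B10_tap array, 5 passed. Within slide columns, which compares 1 array with 1 array, 34 of the 37 were lower in column 3 (median -0.87), 32 in column 4 (median -0.79) and 31 in both, where 40.2% of all genes were lower in both. With the column as a block no gene of all those tested passed.

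**Figure D3:**
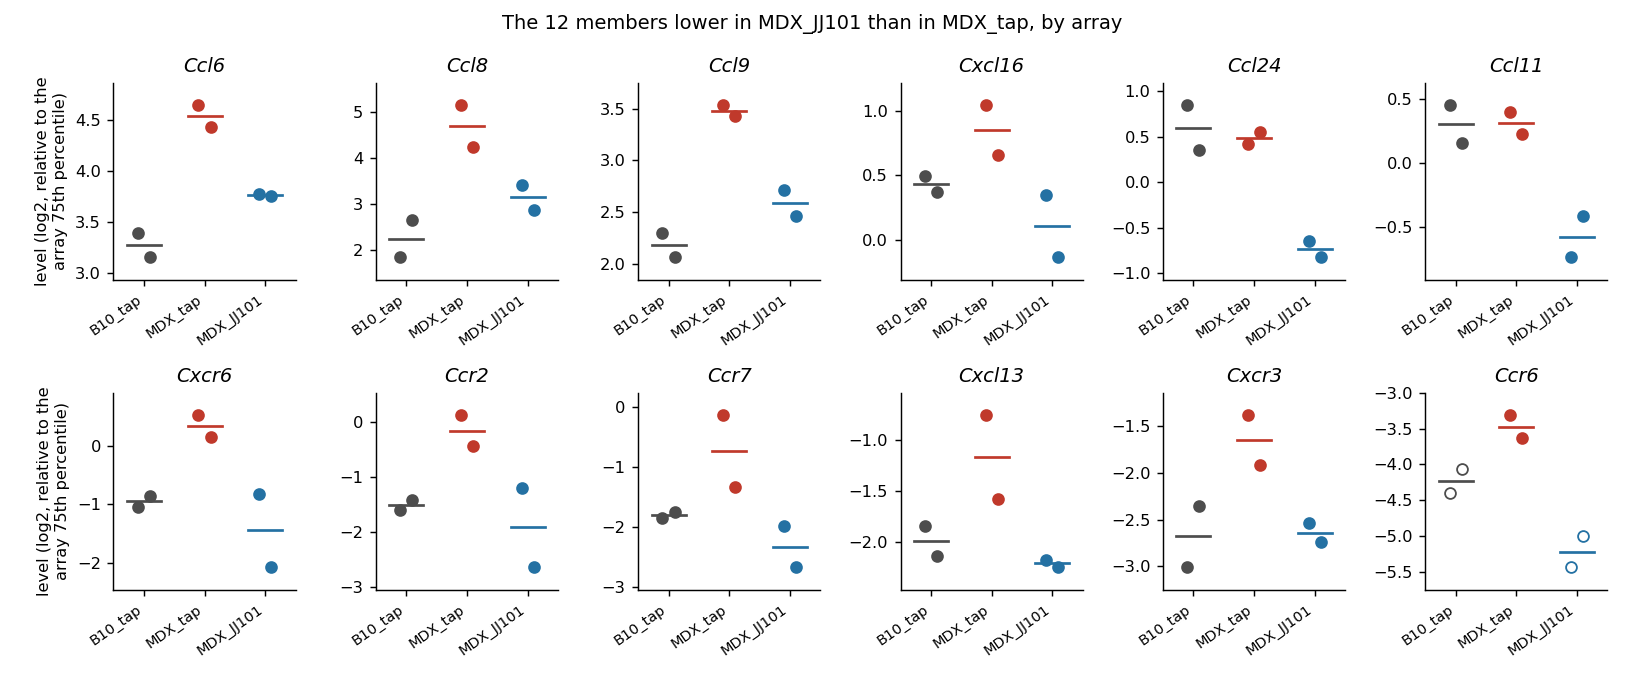
Levels of the 12 members that were lower in MDX_JJ101 than in MDX_tap, on the log2 scale relative to the array's 75th percentile (vertical axes, each panel with its own range); points are arrays, lines group means, and open points arrays not well above background. In each panel both MDX_JJ101 points lie below both MDX_tap points; for Ccl24 and Ccl11 the tap water groups overlap, and Ccr6 is filled only in MDX_tap.

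Of the 11 inflammatory CC ligands tested, 5 passed as lower, where 16.1% of all genes did. All 11 differences were negative, with a median of -1.17. Ccl8 fell 2.93-fold (difference -1.55, SE 0.42, limma's adjusted p = 0.0414), Ccl9 1.86-fold (adjusted p = 0.0146) and Ccl6 1.71-fold (adjusted p = 0.016). In these 3 the MDX_JJ101 arrays stayed above both B10_tap arrays. The eotaxins Ccl24 and Ccl11, which attract eosinophils, fell below B10_tap as well. Ccl24 measured 0.84 and 0.35 in B10_tap, 0.42 and 0.55 in MDX_tap, then -0.64 and -0.83 in MDX_JJ101, a fall of 2.34-fold from MDX_tap (difference -1.22, SE 0.19, limma's adjusted p = 0.0141). Ccl11 measured 0.45 and 0.16, then 0.40 and 0.23, then -0.74 and -0.42, a fall of 1.85-fold (difference -0.89, SE 0.17, adjusted p = 0.0188).

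The other 6 inflammatory CC ligands tested did not pass, and the spread between replicates was wide in most of them. Ccl4, which attracts T cells and macrophages, measured -2.73 and -2.33 in B10_tap, -0.36 and -1.88 in MDX_tap, then -2.27 and -4.83 in MDX_JJ101. Its difference of -2.43 was the most negative of the 37 and had an SE of 0.94 and an adjusted p of 0.0954 by limma. Ccl7 differed by -1.50 (SE 0.64, adjusted p = 0.121) and Ccl2 by -1.37 (SE 0.67, adjusted p = 0.161). Ccl12, a mouse relative of Ccl2, differed by -0.27 (SE 0.54), and its arrays overlapped.

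Of the 9 signalling receptors tested, all 9 had negative differences and 5 passed as lower, where 16.1% of all genes did. Ccr6, among the 5, entered the test only through MDX_tap, so a lower level was built in for it. The receptor Ccr2, which brings monocytes out of marrow and into tissue, was another of the 5. It measured -1.61 and -1.41 in B10_tap, 0.12 and -0.43 in MDX_tap, then -1.19 and -2.64 in MDX_JJ101, a fall of 3.39-fold from MDX_tap (difference -1.76, SE 0.49, limma's adjusted p = 0.0442). MDX_JJ101 lay on both sides of B10_tap. Cxcr6, a receptor of T and NK cells, measured -1.04 and -0.85, then 0.52 and 0.16, then -0.81 and -2.07, and fell 3.44-fold (SE 0.42, adjusted p = 0.0295). Its other probe gave -1.67 against -1.78 from the probe used. Its ligand Cxcl16, made by macrophages and endothelium, measured 0.50 and 0.37, then 1.04 and 0.66, then 0.35 and -0.14, and fell 1.68-fold (adjusted p = 0.0479).

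The receptor Ccr7 and its ligand Ccl19, which guide dendritic cells and naive T cells to lymph nodes, both had negative differences. That of Ccr7 was the larger and passed the threshold, and that of Ccl19 did not pass. Ccr7 measured -1.84 and -1.75 in B10_tap, -0.13 and -1.34 in MDX_tap, then -1.98 and -2.67 in MDX_JJ101, a fall of 3.02-fold from MDX_tap (difference -1.59, SE 0.44, limma's adjusted p = 0.043). Ccl19 measured -0.94 and -1.30, then -0.25 and -0.60, then -1.06 and -1.89, a difference of -1.04 (SE 0.31, adjusted p = 0.0527). The gene table also lists Ccl19 copies named as pseudogenes, so the probes of Ccl19 may read more than 1 gene, and its 2 other probes gave -0.22 and -0.62.

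Cxcr3, a receptor of activated T cells, passed as lower. Its interferon-induced ligands Cxcl9 and Cxcl10 also had negative differences, which did not pass. Cxcr3 measured -3.01 and -2.35 in B10_tap, -1.38 and -1.91 in MDX_tap, then -2.54 and -2.74 in MDX_JJ101. This was a fall of 1.99-fold from MDX_tap (difference -0.99, SE 0.28, limma's adjusted p = 0.0465). Cxcl9 measured 0.72 and 0.46, then 0.73 and 0.02, then -0.36 and -1.09, and differed by -1.10 between the MDX groups (SE 0.34, adjusted p = 0.0544). The MDX groups did not overlap for Cxcl9, and its other probe gave -1.49. Cxcl10 measured -2.21 and -1.28, then -0.17 and -1.51, then -1.37 and -3.15, and MDX_JJ101 overlapped both other groups. The Cxcl10 promoter is shown as the one among those printed here with matches to 3 of the inflammatory motifs; it lies at chr5:92348890-92349139 in GRCm38.p6, on the minus strand. It held NF-kB matches starting 159, 104 and 103 bases before the start, the last pair overlapping, an AP-1 match at 74 bases and the interferon core at 213 bases.
Cxcl10: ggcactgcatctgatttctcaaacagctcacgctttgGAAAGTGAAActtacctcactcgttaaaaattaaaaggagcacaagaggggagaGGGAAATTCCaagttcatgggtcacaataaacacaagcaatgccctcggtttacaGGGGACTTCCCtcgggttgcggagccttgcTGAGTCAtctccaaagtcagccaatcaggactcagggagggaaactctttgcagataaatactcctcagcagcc

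Cxcl13, which attracts B cells through Cxcr5, measured -1.85 and -2.13 in B10_tap, -0.76 and -1.58 in MDX_tap, then -2.17 and -2.25 in MDX_JJ101. It fell 2.06-fold from MDX_tap (difference -1.05, SE 0.29, limma's adjusted p = 0.0417), and both MDX_JJ101 arrays lay below both B10_tap arrays. Ccr6, a receptor of B cells and of a class of helper T cells, was near the detection limit. It measured -4.40 and -4.06 in B10_tap, -3.32 and -3.63 in MDX_tap, then -5.43 and -5.0 in MDX_JJ101, and only the MDX_tap arrays were well above background. It passed by limma, but it entered the test only through MDX_tap, so a lower level in MDX_JJ101 was built in. Its MDX_tap level did not exceed the lowest signal called well above background on the MDX_JJ101 arrays, so no fold can be given.

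The neutrophil-attracting ligands, the homeostatic ligands and the atypical receptors gave no call between the MDX groups. Cxcl1 and Cxcl5 differed by -1.11 (SE 0.85) and -1.14 (SE 0.85). Cxcl12, Ackr3 and Ccl25, a gut-homing ligand, differed by 0.03, 0.04 and 0.01, signs that turned under 3 of the 4 other scalings. Ccl27a, a skin-homing ligand with a near-identical copy that its probes may also read, lay above MDX_tap on both MDX_JJ101 arrays (0.32, SE 0.10, limma's adjusted p = 0.0539), and this turned to lower with spike-in scaling. Ackr2 differed by -0.43 (SE 0.14, adjusted p = 0.0596) and Ackr4, which removes Ccl19, Ccl21 and Ccl25, by -0.36 (SE 0.14, adjusted p = 0.0927).

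Against C57BL/10 mice on tap water, MDX mice on JJ101 had 5 of the 37 members past the threshold, 1 higher and 4 lower, where limma called 33.6% of all genes, 16.2% higher and 17.4% lower. The higher one was Ccl6, 1.41-fold above B10_tap (difference 0.49, SE 0.13, limma's adjusted p = 0.0437). The lower ones were Ccl24 (2.52-fold, adjusted p = 0.0127), Ccl11 (1.84-fold, adjusted p = 0.0203), Cxcl9 (2.49-fold, adjusted p = 0.0372) and Ccr6, which was not well above background in either group. Ccl9 and Ackr2 lay above B10_tap by 0.41 (adjusted p = 0.08) and 0.46 (adjusted p = 0.0532), and Cx3cl1 by 0.48 (adjusted p = 0.0547). The split of the calls moved with the scaling: 7 of 9 members called were higher with median centring and 0 of 9 with spike-in scaling, as were 8457 of 10102 and 105 of 4448 genes in all, against 3376 of 7008. With spike-in scaling the signs of Ccl9 and Ackr2 turned and the difference of Ccl6 was 0.03. Without either B10_tap array no member passed by limma. In the fit of all 6 arrays 11 of the 37 members had an unadjusted p under 0.05, against 47.9% of all genes.

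Replicates lay farther apart among the members tested than among genes at large, on medians. Over the members tested the median absolute difference between replicates came to 0.29 for B10_tap, 0.39 for MDX_tap and 0.63 for MDX_JJ101, and 0.11, 0.16 and 0.19 over all genes. Replicate 1 lay above replicate 2 for 29 of 37 members in MDX_tap and for 31 of 37 in MDX_JJ101, with 25 members in both, against 44.9% and 49.3% of all genes. In B10_tap it did so for 19 of the 36 members with both values, Cxcr4 having none on replicate 2. Replicate 1 of each MDX group lay in slide column 3 and replicate 2 in column 4.

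**Figure D4:**
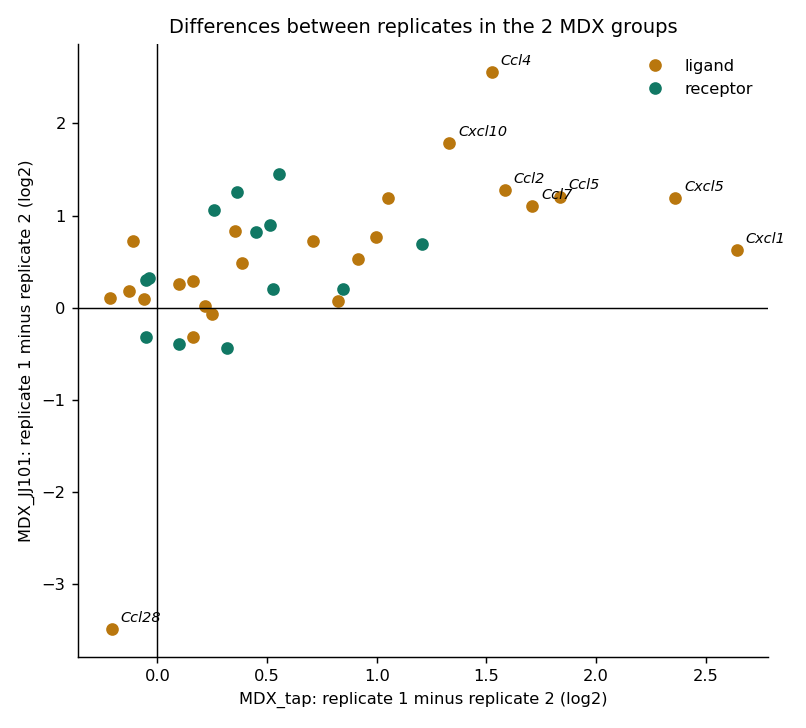
Replicate 1 minus replicate 2 on the log2 scale in MDX_tap (horizontal) and in MDX_JJ101 (vertical) for the 37 members tested; brown points are ligands and green points receptors, and the lines mark 0. There are 25 points in the upper right quadrant; Ccl4, Cxcl10, Ccl5, Ccl2, Ccl7, Cxcl5 and Cxcl1 lie far to the right, and Ccl28 lies apart at the bottom.

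The widest gaps in MDX_tap were those of Cxcl1 and Cxcl5, which attract neutrophils, and of Ccl5 and Ccl7. Cxcl1 measured -0.19 and -2.83 there, Cxcl5 -0.01 and -2.37, and Ccl7 2.43 and 0.72. Among the receptors that could be tested the widest gap there was that of Ccr7, 1.21, while Cx3cr1, a receptor of resident macrophages and patrolling monocytes, measured 1.44 and 0.93. The summed signal of 4 neutrophil markers moved the same way, at 8.91 and 4.70 in MDX_tap, 5.21 and 3.59 in MDX_JJ101 and 5.81 and 3.68 in B10_tap, although this sum was carried by S100a8 and S100a9: Elane, at 1.05 and 1.18 in MDX_tap, and Camp, at -3.65 and -3.15, lay higher in replicate 2. Mpo and Ngp, made in immature neutrophils, were well above background on no array. The part of these markers in the spread was not tested.

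Markers of the cells that make or bear chemokines were counted in the JJ101 comparison, where 16.1% of all genes were lower and 19.9% higher. In bulk tissue, fewer cells of a type and less RNA per cell cannot be told apart. Of 11 macrophage markers, 5 were lower and 1 higher in MDX_JJ101 than in MDX_tap, and their summed signal ran from 101 to 105 in B10_tap, from 117 to 145 in MDX_tap and from 98.6 to 104 in MDX_JJ101. Of 9 T and NK cell markers tested, 2 were lower, with sums of 9.53 to 9.59, 9.28 to 10.4 and 7.61 to 8.07, and Cd8a, Klrb1c and Ncr1 were well above background on no array. Of 5 fibroblast markers 3 were lower (sums 415 to 437, 598 to 644 and 223 to 316), of 6 endothelial markers 4 (sums 61.6 to 65.7, 66.1 to 67.7 and 40.5 to 46.6), and of 3 B cell markers tested 3 (sums 1.15 to 1.29, 0.907 to 1.61 and 0.434 to 0.495). The shares for T and NK cell (22.2%), mast cell (14.3%) and dendritic cell markers (25.0%) lay near that of all genes. Of 7 mast cell markers 1 was lower (sums 1.68 to 1.89, 3.74 to 3.95 and 2.24 to 3.01), and of 4 dendritic cell markers tested 1 (sums 1.08 to 1.12, 1.47 to 2.12 and 0.602 to 1.35). The sums were carried by the brightest markers: Itgam and Csf1r for macrophages, Cd4, Cd3e and Nkg7 for T and NK cells, and Dcn for fibroblasts. Itgam was the 1 macrophage marker that was higher. Cd3d and Cd3g, both dim, were the 2 lower T and NK cell markers. The part of these cell types in the lower chemokine levels was not tested.

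Genes of the chemokine system that the naming rule leaves out were counted as a list of 7. Of these, 4 were lower and 1 higher in MDX_JJ101, where 16.1% and 19.9% of all genes were, and 1 of the 4, Cmklr1, entered the test only through MDX_tap. Rarres2, the precursor of the attractant chemerin, measured 4.42 and 4.31 in B10_tap, 4.70 and 4.66 in MDX_tap, then 3.77 and 3.55 in MDX_JJ101, and fell 2.02-fold (limma's adjusted p = 0.0128). Pf4, a platelet chemokine also made by macrophages, fell 1.75-fold (adjusted p = 0.0206) and its relative Ppbp 2.17-fold (adjusted p = 0.0405). Mif, a cytokine that also binds chemokine receptors, rose 1.64-fold (adjusted p = 0.0148). The median over the 7 was -0.60, and between MDX_tap and B10_tap none passed by limma, the median being 0.41.

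Downstream of the receptors, 6 of 29 signalling and desensitisation genes tested were lower and 2 higher in MDX_JJ101 than in MDX_tap, with a median of -0.26. These shares, 20.7% lower and 27.6% called in all, lay near or below the 16.1% and 36.1% of all genes. Gnai3 and Gnai1, inhibitory G protein alpha subunits through which chemokine receptors signal, fell 1.85-fold and 1.90-fold (adjusted p = 0.0131 and 0.0135 by limma). Rgs1, which shortens that signal, measured -6.53 and -6.41 in B10_tap, -2.38 and -3.54 in MDX_tap, then -4.82 and -5.54 in MDX_JJ101, with only the MDX_tap arrays well above background. It is 1 of the 6 but entered the test only through MDX_tap, so its lower level in MDX_JJ101 was built in. Grk2, a kinase that desensitises receptors, rose 1.53-fold (adjusted p = 0.0209). Among 11 genes of chemokine processing and display tested, 1 was lower and 1 higher, 18.2% in all, which is below the 36.1% of all genes. The lower one, Dpp4, a protease that trims chemokines, fell 2.12-fold (limma's adjusted p = 0.0128). The higher one, Ndst1, which sulfates the heparan chains that hold chemokines, rose 1.74-fold (adjusted p = 0.0217).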

How the data were processed

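Gene expression was measured in total RNA of 6 samples, 2 in each of 3 groups taken from the labels. The authors' intensity values come from Agilent Feature Extraction (version 11.5.1.1 in the submitters' processing notes). The deposited processed signal is background-subtracted, and other deposited columns are flags of 0 or 1 for outlier spots and spots well above background. The authors' deposited series table holds log2 values whose columns have the rank order of the median spot signal and nearly the same distribution on each array. Its scale was found by that match, and it served as an alternative only.

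Levels were processed signals on the log2 scale, less the 75th percentile of the 59305 non-control spots of the array. Outlier spots were dropped, and a probe's spots were averaged. Of 55681 probes, 27656 had 1 symbol through a RefSeq gene table of GRCm38.p6 and 28025 had none. The array files use mm9 coordinates, so the gene table gave names and neighbours only. The filter kept 27258 probes that were well above background on each array of 1 group or more, which gave 20869 genes and transcripts, of which 13952 had a symbol, by their probe with the highest mean. One limma fit (version 3.58.1, R 4.3.3) held the 3 groups, with 3 residual and 2.21 prior degrees of freedom and two-sided tests. The fit had 8 missing values, 1 of them Cxcr4 on B10_tap replicate 2. The steps were tested on simulated data. An exact permutation test of 2 arrays against 2 cannot give a p below 0.333 and was not used. The number of arrays limits the precision, and signal over background limits how low a level can be measured.

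Where no array of the dimmer group was well above background, a fold is a bound, computed against the lowest signal among well-above-background probes on its arrays. Alternatives were median centring, spike-in scaling, normexp with quantile normalization, the authors' table, other filters, every probe, 2 groups alone, replicate and slide column blocks and leaving out each array. Normexp used the median spot signal, the mean not being in the files used here. Values are given on each array for members past the threshold in any comparison, the 8 with the smallest p in each and the 5 brightest; other members are named to account for the family. Pathway genes named are up to 4 past the threshold per list. Cxcl14, Ccl2, Ccl4, Ccl5, Ccl7, Ccl12, Ccl19, Cxcl1, Cxcl5, Cxcl10, Cx3cr1 and the Dmd check were added after their values were seen. The members, the lists and the text's choices were made with earlier results of these data known.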

Additional observations from a re-analysis of the deposited data

How the results depend on the processing

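Between MDX_tap and B10_tap, where no member passed, 4 were called with median centring, 6 with spike-in scaling, 5 by normexp and quantile normalization, 5 in the authors' table, 3 among probes well above background on all 6 arrays and 1 with the 2 groups fitted alone; leaving out 1 array gave 0 to 1, with 7 to 14 at an unadjusted p under 0.05. Between MDX_JJ101 and MDX_tap, where 12 passed, spike-in scaling gave 25, the 2 groups alone 5 and the slide column as a block 0; leaving out 1 array gave 0 to 16. Between MDX_JJ101 and B10_tap, where 5 passed, median centring and spike-in scaling each gave 9 and no filter 14; leaving out 1 array gave 0 to 9. Without a filter 10 members were called higher in each comparison with MDX_JJ101, and those 10 were well above background on no array, where levels in MDX_JJ101 were near -5.5 and in the other groups near -6.3 (Ccr4 -5.49 and -5.47 against -6.36 to -6.02). The difference between MDX_JJ101 and B10_tap reversed with spike-in scaling for Ackr2 (-0.00299) and Ccl9 (-0.054); the cause was not tested. Over the named members 287 of the alternative values kept direction and side of the threshold, 108 lost the threshold and 31 gained it.

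Over all genes, 5 calls between MDX_tap and B10_tap became 285 with median centring, 413 with spike-in scaling, 396 by normexp, 337 in the authors' table, 151 on all 6 arrays, 15 with every probe, 125 with 2 groups and 0 with no filter, where the smallest adjusted p by limma was 0.074; leaving out 1 array gave 0 to 125. The 7529 calls between the MDX groups became 3771 with spike-in scaling, 13640 with no filter and 3247 with 2 groups, 0 with the column block, and 48 to 7701 leaving out 1 array. The 7008 calls between MDX_JJ101 and B10_tap became 4448 with spike-in scaling, 14092 with no filter and 76 to 6908 leaving out 1 array. Relative to the 75th percentile, the median of all genes moved by over 0.1 with median centring in each comparison (0.11, 0.23 and 0.39) and with spike-in scaling in those with MDX_JJ101 (-0.43 and -0.47).

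Same-numbered MDX arrays share a slide column, and no label pairs the samples otherwise. Deviations of same-numbered arrays correlated at -0.03, -0.06 and 0.16 across genes. With the replicate number as a block 0, 13 and 6 members and 4, 6517 and 5863 genes were called in the 3 comparisons. A fit that left out 1 array of a pair assumed the lone array to vary like the other groups. Members near the detection limit (Ccr6, Ccr8, Ccl28) have bounds or no fold.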
